A study of Homo sapiens with 6 samples.

Results

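Aldo-keto reductases are NADPH-dependent enzymes that reduce aldehydes and ketones, among them reactive aldehydes, sugars, retinaldehyde, steroids, prostaglandins and quinones. The 10 genes described here are AKR1A1, AKR1B1, AKR1B10, AKR1C1, AKR1C2, AKR1C3, AKR1C4, AKR1D1, AKR7A2 and AKR7A3. They were taken by symbol and not by a cut on their values, but earlier results of these data were known when they were chosen. All 10 had a row among the 60564 rows with an Ensembl gene identifier. In liver the family clears carbonyl compounds and takes part in bile acid and steroid hormone metabolism, and several members are known to be switched on by NRF2, a regulator of the response to oxidants.

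The data are RNA sequencing counts of 6 libraries of wild-type HepG2, a human cell line derived from hepatic cancer, grown in DMEM with fetal calf serum and antibiotics. The 3 formononetin libraries came from cells given formononetin, an isoflavone of legumes, at a labelled dose of 625 (unit written μm) for 72 h. The 3 control libraries are labelled with DMEM as their treatment, and no solvent control or culture time of their own is named. Nothing in the labels says whether replicates were separate cultures; the p-values therefore reflect the scatter among these libraries alone, and that scatter may be technical.

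Counts on named genes totalled 37465148 to 45682722 in formononetin libraries and 30848848 to 36243606 in control libraries. All 8 hepatocyte markers examined were detected, with a summed level of 38940 to 40010 CPM (counts brought to a common total of 1000000 per library) in formononetin libraries and 47200 to 48590 CPM in control libraries. Of these markers 7 were lowered and none was raised (edgeR, adjusted p under 0.05), where 8.71% of all tested genes were lowered and 12% raised. The share lowered among the more abundant genes alone was not computed. Of the markers of other cells, 4 of 6 for fibroblasts (COL1A2, COL3A1, DCN and LUM), 1 of 5 for endothelium (TEK) and 4 of 7 for macrophages and blood (PTPRC, MARCO, CD3E and HBB) had 0 counts in every library. The summed markers held 3.82 to 4.59 CPM in formononetin against 12.9 to 15.1 CPM in control libraries for fibroblasts, 24.0 to 28.2 against 22.1 to 25.6 CPM for endothelium, and 6.23 to 8.47 against 2.89 to 4.87 CPM for macrophages and blood. PDGFRB was lowered by the same test, and CD68 was raised, though not without formononetin replicate 2 or 3. The part of these markers in the results was not tested. In bulk RNA a change in the number of cells of a type and a change in RNA per cell cannot be told apart.

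The AKR1C genes lie side by side on chromosome 10 (GRCh38, GENCODE 29) and are near-identical copies, which bears on every value given for them. AKR1C1 spans 4963253 to 4983283 on the forward strand, AKR1C2 4987400 to 5018031 on the reverse strand, AKR1C3 5035354 to 5107686 and AKR1C4 5195462 to 5218949, both on the forward strand. The coding sequences of AKR1C1 and AKR1C2 differ at 19 of 969 bases (98.0% identity). AKR1C3 shares 91.4% and AKR1C4 88.8% of its coding bases with AKR1C1, while AKR1B10 and AKR1B1 share 76.2% with each other. The first 60 coding bases of the 4 copies, from the GENCODE 29 transcripts, are shown because they display how little separates them. Capitals mark bases that differ from AKR1C1.
AKR1C1 (chr10:4963445-4963504, forward strand): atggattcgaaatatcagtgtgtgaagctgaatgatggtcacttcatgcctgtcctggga
AKR1C2 (chr10:5003776-5003835, reverse strand): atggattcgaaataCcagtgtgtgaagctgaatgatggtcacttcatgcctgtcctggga
AKR1C3 (chr10:5094445-5094504, forward strand): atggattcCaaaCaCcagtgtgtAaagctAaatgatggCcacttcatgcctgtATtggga
AKR1C4 (chr10:5196868-5196927, forward strand): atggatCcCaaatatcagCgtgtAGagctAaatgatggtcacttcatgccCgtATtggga

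In this stretch AKR1C2 differs from AKR1C1 at 1 base, AKR1C3 at 8 and AKR1C4 at 9. A read can be assigned to 1 copy only where it covers such a base. Windows of 50 bases, taken from coding sequence only, were found unchanged in another AKR gene's transcripts for 54.3% of positions in AKR1C1 and 57.1% in AKR1C2. For windows of 100 bases the values were 20.7% and 26.4%, and for 150 bases 4.6% and 7.3%. The shares were 23.0% in AKR1C3 and 17.6% in AKR1C4 for 50 bases, 28.5% in AKR1B10 (with AKR1B15 and the pseudogene AKR1B10P1) and 31.5% in AKR7A3 (with AKR7L, AKR7A2 and AKR7A2P1). AKR1A1 had none, AKR1D1 0.3% and AKR1B1 7.2%. The sources used here give neither the read length nor how reads that match several genes were counted, so the split among AKR1C1, AKR1C2 and AKR1C3 is uncertain and sums are given beside them. No annotated exon of another gene overlapped the exons of any of the 10 genes.

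**Figure D1:**
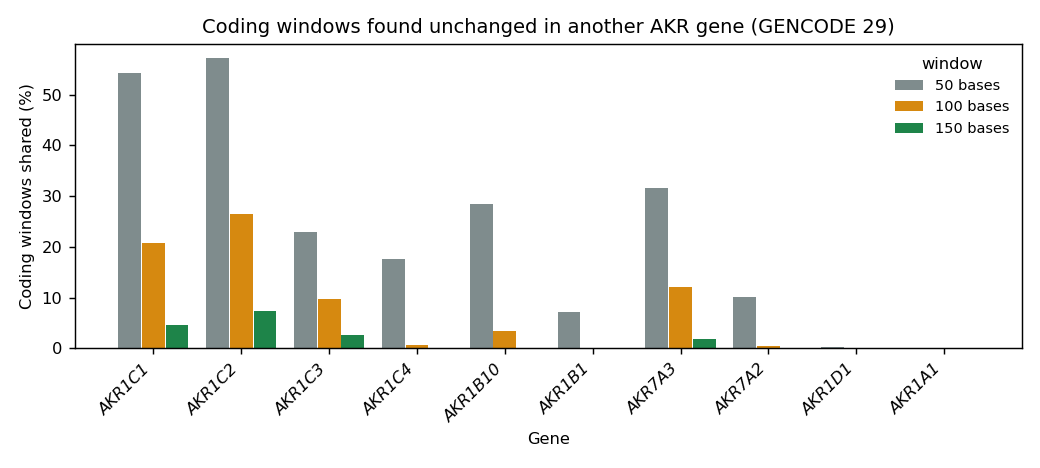
Share of windows of a gene's coding sequence (y axis, %) that occur unchanged in a transcript of another AKR gene of GENCODE 29, for windows of 50, 100 and 150 bases (bars), by gene (x axis). AKR1C1 and AKR1C2 have the highest shares, 54.3% and 57.1% at 50 bases, and AKR1A1 has none.

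The sequences before the starts of AKR1C1 and AKR1C2 are alike as well. They are shown because both genes were raised in the data, where the split of reads between them is uncertain. Whether these sequences have a part in the change was not tested. The windows run from 250 bases before to 50 bases after the start, 5′ to 3′ (RefSeq, GRCh38.p14), and capitals mark bases that differ or have no partner when the windows are aligned (93.5% identity, with 4 differing bases and 16 bases in gaps). The capitals at the start of the AKR1C1 window and at the end of the AKR1C2 window are offset ends of the windows. They are not differences between the genes, but the identity counts them as gaps.
AKR1C1 (chr10:4963165-4963464, forward strand): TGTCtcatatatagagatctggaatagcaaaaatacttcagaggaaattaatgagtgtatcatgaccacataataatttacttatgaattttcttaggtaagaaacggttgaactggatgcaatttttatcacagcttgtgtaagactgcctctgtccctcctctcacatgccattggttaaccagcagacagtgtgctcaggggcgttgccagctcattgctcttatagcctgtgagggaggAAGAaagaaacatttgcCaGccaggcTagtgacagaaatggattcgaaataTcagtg
AKR1C2 (chr10:5003808-5004107, reverse strand): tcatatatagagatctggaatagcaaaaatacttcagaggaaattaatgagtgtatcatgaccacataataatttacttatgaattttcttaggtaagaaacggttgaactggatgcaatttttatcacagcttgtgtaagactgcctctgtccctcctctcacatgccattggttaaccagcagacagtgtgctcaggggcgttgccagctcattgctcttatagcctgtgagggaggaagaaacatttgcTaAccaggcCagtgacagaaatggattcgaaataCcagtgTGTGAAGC

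The antioxidant response element, to which NRF2 binds, was searched as TGACNNNGC on both strands in the promoter windows, which the reference held for 9 of the 10 genes (12 windows). AKR1B10 had none listed. Of all 35116 promoters of this length, 13.3% hold the motif. Among these genes it was found in AKR7A2, whose window has 3 matches, beginning 167, 156 and 95 bases before the start (the first on the opposite strand), shown in capitals. A match is a stretch of letters, not a measured site, and the windows of AKR1C1 and AKR1C2 do not hold these letters. Sequence outside the windows was not searched, nor was the promoter of AKR1B10. GCGTG, the core letters of the xenobiotic response element, were in windows of AKR7A2, AKR7A3 and AKR1B1 (36.5% of all promoters hold them), and TGACTCA, the AP-1 letters, in no window (4.9% of all promoters), both strands searched.
AKR7A2 (chr1:19312097-19312396, reverse strand): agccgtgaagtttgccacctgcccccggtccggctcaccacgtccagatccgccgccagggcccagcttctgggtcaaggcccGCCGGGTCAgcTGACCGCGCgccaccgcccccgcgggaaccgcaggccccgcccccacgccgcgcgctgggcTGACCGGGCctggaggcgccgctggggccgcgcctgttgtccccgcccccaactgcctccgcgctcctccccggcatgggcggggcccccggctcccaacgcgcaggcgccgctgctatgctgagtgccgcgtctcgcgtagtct

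Aldo-keto reductase transcript was higher in formononetin libraries, led by AKR1B10, AKR1C2 and AKR1C1. The 10 genes together held 0.397 to 0.406% of all counts in formononetin libraries and 0.162 to 0.183% in control libraries. Their summed level was 3962 ± 39.6 CPM in formononetin and 1781 ± 123 CPM in control libraries (SD, n = 3 each), a ratio of 2.22. Of the 10 genes 9 passed the filter on low counts, and 7 of these were raised, 0 lowered and 2 not called (edgeR quasi-likelihood test over 22230 genes, Benjamini-Hochberg adjusted p under 0.05). Over all tested genes 12% were raised and 8.71% lowered (2659 and 1937 genes, against 1813 and 2737 under upper quartile scaling), and 21.6% of those averaging at least 3 in log2 CPM were raised. AKR1B10, AKR1C2 and AKR1C1 were raised with a log2 fold change of 1 or more, as were 1.25% of tested genes. In either direction 20.7% were called. All 3 formononetin libraries lay above all 3 control libraries for 8 of the 9 genes, against 20.8% of tested genes; 18.7% lay below. The median log2 fold change of the 9 was 0.70 and that of all tested genes -0.01. The number raised was 5 without control replicate 2, without control replicate 3 or without formononetin replicate 3, and the calls lost were those of AKR1A1 and AKR1B1.

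**Figure D2:**
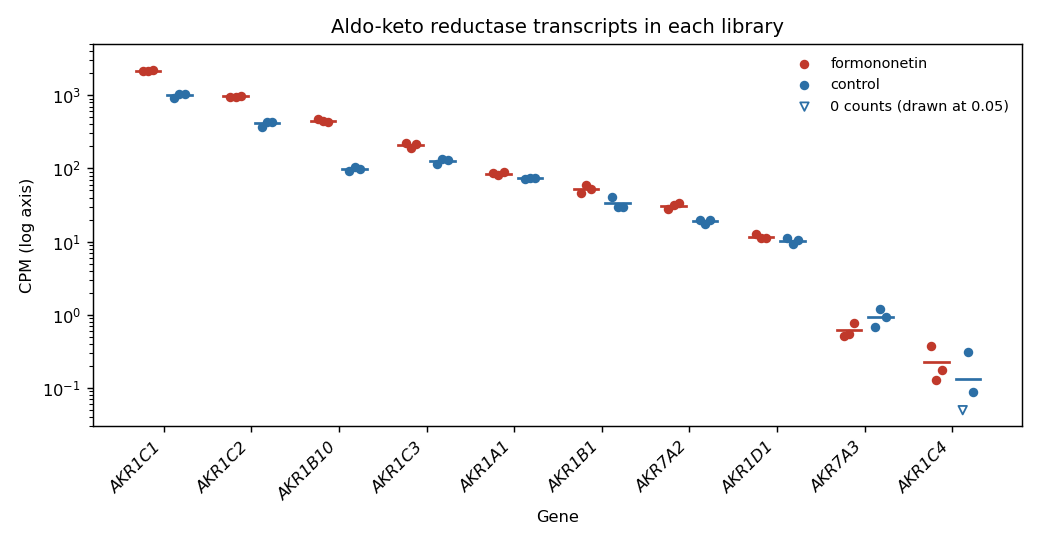
CPM of each gene (y axis, log scale) in the 3 formononetin and the 3 control libraries (points; lines are means), by gene (x axis). The groups do not overlap for any gene from AKR1C1 at the left to AKR1D1, and they overlap for AKR7A3 and AKR1C4, where an open triangle marks 0 counts.

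AKR1B10 reduces retinaldehyde to retinol and is often raised in liver cancer. It was at 466, 449 and 436 CPM in formononetin libraries, against 93.5, 103 and 96.9 CPM in control libraries (chromosome 7, 134527592 to 134541408, forward strand). Each formononetin library held more than 4 times as much as any control library. The log2 fold change was 2.20 ± 0.05 (SE; 95% interval 2.08 to 2.33; adjusted p = 3.22e-06), and 5 genes averaging at least 3 in log2 CPM had a larger one. By CPM, AKR1B10 ranked 241st of all genes in formononetin and 1958th in control libraries. Its neighbour AKR1B15 had 50, 55 and 60 counts in formononetin and 6, 7 and 11 counts in control libraries. AKR1B10P1, a processed copy on chromosome 10, had 61, 60 and 101 counts in formononetin and 7, 17 and 18 counts in control libraries. Their counts relative to AKR1B10 overlapped between groups, at 0.00297 ± 0.000282 and 0.00396 ± 0.00102 in formononetin against 0.00245 ± 0.000782 and 0.00418 ± 0.00155 in control libraries (exact permutation p = 0.4 and 0.9, two-sided). Whether they hold reads of AKR1B10 was not tested. Summed with AKR1B15 and AKR1B10P1, AKR1B10 changed by 2.20 on the log2 scale.

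AKR1B1 is aldose reductase, which turns glucose into sorbitol. It was at 46.3, 60.1 and 52.3 CPM in formononetin libraries, against 40.6, 29.5 and 30.0 CPM in control libraries (chromosome 7, 134442350 to 134459284, reverse strand). The groups did not overlap, but control replicate 1 was close to formononetin replicate 1. The log2 fold change was 0.66 ± 0.15 (95% interval 0.32 to 1.01; adjusted p = 0.0187). The call was lost without formononetin replicate 2 or 3 or control replicate 2 or 3 (adjusted p up to 0.0656), with log2 fold changes of 0.56 to 0.67. Without control replicate 1 the change was 0.83. Per kb of exons, AKR1B10 was 21.1, 15.7 and 17.5 times as abundant as AKR1B1 in formononetin libraries and 4.83, 7.33 and 6.77 times in control libraries. These ratios, which do not depend on the scaling of libraries, did not overlap (two-sided exact permutation p = 0.1, the lowest that 3 against 3 libraries can reach). Their size depends on the length used. By counts alone they were 10.1, 7.47 and 8.33 in formononetin and 2.30, 3.49 and 3.23 in control libraries.

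AKR1C1, which inactivates progesterone, was the most abundant member by CPM. It was at 2118, 2165 and 2200 CPM in formononetin libraries, against 915, 1049.5 and 1052 CPM in control libraries. Formononetin libraries lay about a factor of 2 above control libraries, without overlap. The log2 fold change was 1.10 ± 0.06 (95% interval 0.96 to 1.24; adjusted p = 0.000101). AKR1C1 ranked 29th of all genes by CPM in formononetin and 79th in control libraries.

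AKR1C2 inactivates dihydrotestosterone. It was at 955, 958 and 972 CPM in formononetin libraries, against 371, 435 and 431 CPM in control libraries. Control replicate 1 was the lowest library for both genes. The log2 fold change was 1.22 ± 0.06 (95% interval 1.07 to 1.37; adjusted p = 9.26e-05). Counted together, AKR1C1 and AKR1C2 were at 3123 ± 49.6 CPM in formononetin and 1418 ± 114 CPM in control libraries; as 1 row they changed by 1.14 ± 0.06 on the log2 scale (adjusted p = 9.98e-05).

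AKR1C3 makes testosterone and prostaglandin F and had a smaller log2 fold change. It was at 219, 189.8 and 213 CPM in formononetin libraries, against 116, 136 and 132 CPM in control libraries. The groups did not overlap. The log2 fold change was 0.70 ± 0.08 (95% interval 0.51 to 0.88; adjusted p = 0.00125). Per kb of exons, AKR1C3 was 0.327, 0.283 and 0.313 times as abundant as AKR1C2 in formononetin libraries and 0.446, 0.446 and 0.437 times in control libraries. The ratio of AKR1C1 to AKR1C2 was 1.63, 1.67 and 1.67 in formononetin libraries and 1.82, 1.78 and 1.80 in control libraries. Neither ratio overlapped between groups (exact permutation p = 0.1 each, two-sided, the smallest possible), and the uncertain split of reads applies to both.

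AKR1C4, a liver enzyme of steroid and bile acid metabolism, was near the limit of detection and did not pass the filter. It had 15, 5 and 8 counts in formononetin libraries and 0, 11 and 3 counts in control libraries. The groups overlapped. A count of 0 in control replicate 1 allows up to 0.0987 CPM (3 counts; counting error only), and a difference was not detectable at this depth. With all 4 copies summed, the AKR1C genes were at 3293, 3313 and 3385 CPM in formononetin libraries and 1402, 1621 and 1615 CPM in control libraries. The sum changed by 1.11 ± 0.06 on the log2 scale (edgeR adjusted p = 0.00011). It does not depend on which of the 4 copies a read was given to. Reads left out for matching several copies, or counted for more than 1, would still alter it.

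**Figure D3:**
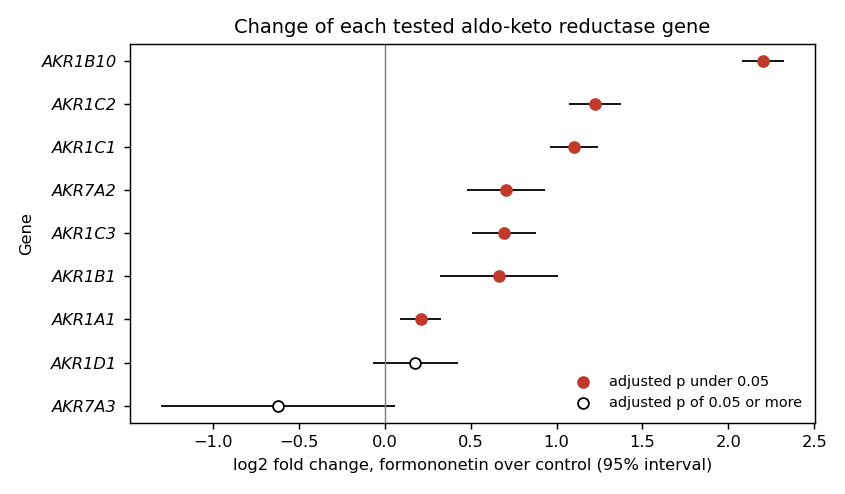
Log2 fold change of formononetin over control with its 95% interval (x axis) for the 9 tested genes (y axis); filled points have adjusted p under 0.05. AKR1B10 stands highest at 2.20, AKR1C2 and AKR1C1 follow at 1.22 and 1.10, and the intervals of AKR1D1 and AKR7A3 cross 0.

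AKR1D1 reduces the double bond of the steroid ring system in bile acid synthesis. It was at 12.7, 11.14 and 11.15 CPM in formononetin libraries, against 11.12, 9.42 and 10.4 CPM in control libraries (chromosome 7, 138002324 to 138117986, forward strand). The groups barely separated and the gene was not called, with a log2 fold change of 0.18 ± 0.11 (95% interval -0.07 to 0.43; adjusted p = 0.285).

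AKR1A1 is aldehyde reductase, found in most tissues. It was at 85.7, 81.2 and 88.4 CPM in formononetin libraries, against 71.3, 74.7 and 74.7 CPM in control libraries (chromosome 1, 45550543 to 45570049, forward strand). The groups did not overlap and the difference was small. The log2 fold change was 0.21 ± 0.05 (95% interval 0.09 to 0.33; adjusted p = 0.0274). The call was lost without formononetin replicate 1 or 3 or any 1 of the control replicates (adjusted p up to 0.108) and under upper quartile scaling (0.13, adjusted p = 0.116).

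The AKR7A enzymes reduce the dialdehyde of aflatoxin, and AKR7A2 also acts on succinic semialdehyde. AKR7A2 was at 27.9, 32.0 and 33.4 CPM in formononetin libraries, against 19.9, 17.2 and 20.03 CPM in control libraries (chromosome 1, 19303965 to 19312146, reverse strand). The groups did not overlap, and the log2 fold change was 0.71 ± 0.10 (95% interval 0.48 to 0.93; adjusted p = 0.0027).

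AKR7A3 was low, at 0.521, 0.551 and 0.773 CPM in formononetin libraries and 0.691, 1.20 and 0.944 CPM in control libraries (chromosome 1, 19282558 to 19289250, reverse strand). The groups overlapped and the gene was not called (log2 fold change -0.62 ± 0.29, 95% interval -1.30 to 0.06, adjusted p = 0.186). Per kb of exons, AKR7A3 was 0.0194, 0.0179 and 0.0241 times as abundant as AKR7A2 in formononetin libraries and 0.0361, 0.0726 and 0.0491 times in control libraries, without overlap (exact permutation p = 0.1, two-sided, the smallest possible). This ratio rests on 21 to 43 counts of AKR7A3 per library, and the split of reads among the AKR7 copies is uncertain too. AKR7L, which shares most of its sequence with AKR7A3, had 29, 32 and 27 counts in formononetin and 22, 26 and 24 counts in control libraries. Summed as 1 row, AKR7A2, AKR7A3 and AKR7L changed by 0.64 ± 0.09 on the log2 scale (edgeR adjusted p = 0.00294).

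Levels of different genes were compared per kb of exons (the union of all annotated exons), since longer transcripts yield more reads. The order of genes depends on the length used. By CPM alone, AKR1C1 was at 2161 ± 41.1 and AKR1B10 at 450 ± 15.5 in formononetin libraries. The same values were 1006 ± 78.4 and 97.8 ± 4.81 CPM in control libraries. In formononetin libraries AKR1B10 (258 ± 8.88 CPM per kb) and AKR1C1 (247 ± 4.69) stood highest, and their ranges overlapped. AKR1C2 followed at 149 ± 1.42, AKR1C3 at 45.8 ± 3.43 and AKR1A1 at 27.3 ± 1.17 CPM per kb. AKR7A2 (17.4 ± 1.59) and AKR1B1 (14.5 ± 1.90) overlapped, and AKR1D1 (3.77 ± 0.295), AKR7A3 (0.360 ± 0.0804) and AKR1C4 (0.118 ± 0.0669) were lowest. In control libraries AKR1C1 (115 ± 8.94 CPM per kb) led. AKR1C2 (63.8 ± 5.56) and AKR1B10 (56.1 ± 2.76) overlapped there, AKR1C3 (28.3 ± 2.35) and AKR1A1 (23.6 ± 0.627) did not, AKR7A2 (10.7 ± 0.890) and AKR1B1 (9.12 ± 1.72) did, and the other 3 kept the lowest places.

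AKR1B10 had the largest difference in share of the family. Of the summed CPM per kb of exons, AKR1B10 held 34.9, 33.9 and 32.7% in formononetin libraries, against 18.5, 18.3 and 17.4% in control libraries. AKR1C1 held 32.3 ± 0.678% in formononetin and 37.0 ± 0.868% in control libraries, and AKR1C3 5.999 ± 0.424% and 9.10 ± 0.261%. AKR1A1 held 3.57 ± 0.141% in formononetin and 7.61 ± 0.235% in control libraries, although its own level was called raised. Each of these shares separated the groups (exact permutation p = 0.1, two-sided, the smallest possible). The annotated exons of AKR1C1 span 8765 bases and those of AKR1B10 1744, while their coding lengths are alike, so the shares depend on the length used. Per kb of coding length AKR1B10 held 12.6 ± 0.542% in formononetin and 6.15 ± 0.257% in control libraries, and AKR1C1 52.3 ± 0.600% and 54.5 ± 0.570%. The share of AKR1C2 was lower in formononetin than in control libraries per kb of exons (19.5 ± 0.200% against 20.5 ± 0.657%) and higher per kb of coding length (25.1 ± 0.00712% against 24.1 ± 0.466%).

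**Figure D4:**
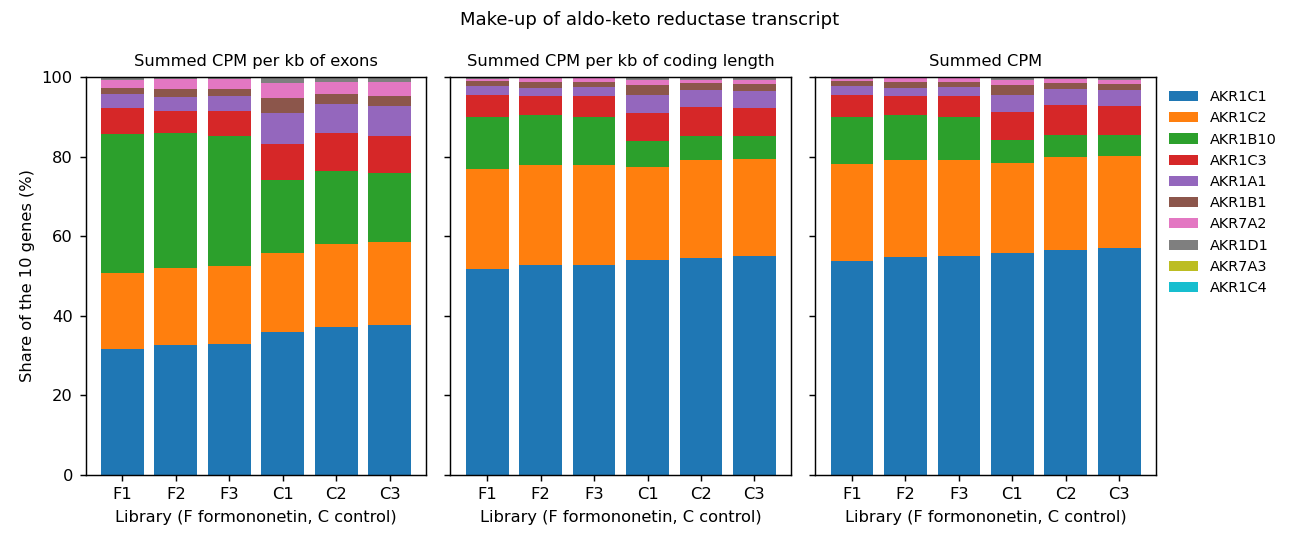
Share of each gene in the summed transcript of the 10 genes (y axis, %) in formononetin libraries F1 to F3 and control libraries C1 to C3 (x axis), computed from CPM per kb of exons, CPM per kb of coding length and CPM. The AKR1B10 band is about 34% in formononetin and 18% in control libraries in the first panel and smaller in the other panels, where AKR1C1 holds over 50%.

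**Figure D5:**
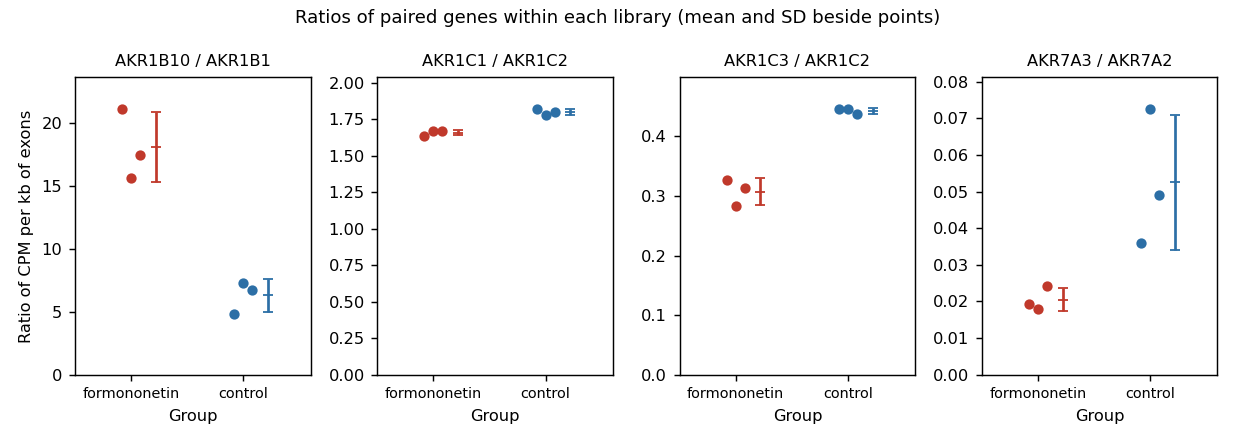
Ratios of CPM per kb of exons (y axis) for 4 pairs of genes within each library (points) of the formononetin and control groups (x axis), with mean and SD. The ratio of AKR1B10 to AKR1B1 is 15.7 to 21.1 in formononetin and 4.83 to 7.33 in control libraries; the other 3 ratios are lower in all formononetin libraries.

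AKR1C1, the member with the highest mean CPM per kb of exons, was compared with 10322 other genes, averaging at least 3 in log2 CPM, across the 6 libraries. The genes most like it were FUCA2, PRPF4, RGMB, PKIG and TMX4, with Pearson r of log2 CPM from 0.998 to 0.999. The 6 libraries share the group difference, and 1023 genes had r above 0.95, so the likeness is a description of these libraries.

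Genes that work beside the reductases were examined as lists, whose counts stand beside 12% raised and 8.71% lowered over all tested genes, 21.6% raised among those averaging at least 3 in log2 CPM, and a median log2 fold change of -0.01. Of the 7 tested enzymes that supply NADPH, the cofactor of the family, 6 were raised and 1 lowered, with a median log2 fold change of 0.48 (4 to 6 raised under the alternatives run). The pentose phosphate enzyme TALDO1 was at 203 ± 7.27 CPM in formononetin and 104 ± 1.43 CPM in control libraries (log2 fold change 0.96 ± 0.04). IDH1, which makes NADPH in the cytosol, was at 607 ± 0.58 and 342 ± 5.17 CPM (0.83 ± 0.03), and its mitochondrial relative IDH2 at 92.2 ± 3.06 and 58.5 ± 5.39 CPM (0.66 ± 0.07). The lowered gene was PGLS (-0.36 ± 0.10), whose call was lost without formononetin replicate 2 or 3 or any 1 of the control replicates (adjusted p up to 0.116), under library total scaling (0.0764) and with no low-count filter (0.0819).

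Of 11 tested carbonyl reductases of the short-chain dehydrogenase family, which act on overlapping substrates, 5 were raised and 1 lowered (median 0.32), against 12% and 8.71% of all tested genes. DHRS11 was at 24.9 ± 1.77 CPM in formononetin and 13.5 ± 2.12 CPM in control libraries (0.88 ± 0.12), SPR, of tetrahydrobiopterin synthesis, at 54.5 ± 1.67 and 31.9 ± 1.35 CPM (0.77 ± 0.06) and CBR1 at 15.9 ± 1.61 and 10.5 ± 0.395 CPM (0.60 ± 0.10). The retinaldehyde reductase DHRS3 was lowered, at 85.6 ± 1.61 CPM in formononetin and 117 ± 3.92 CPM in control libraries (-0.45 ± 0.05). In the list for retinoid metabolism 2 of 10 were raised and 1, again DHRS3, lowered (median -0.04), a share raised near the 21.6% of the more abundant genes. The raised genes were ALDH1A1, which oxidises retinaldehyde (0.59 ± 0.04), and RDH10, which forms it (0.54 ± 0.05); 4 were raised under library total scaling, and 2 were lowered without control replicate 1.

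Bile acid synthesis, in which AKR1D1 and AKR1C4 act, had 6 of 10 tested genes raised and 1 lowered (median 0.58), against 12% and 8.71% of all tested genes. ACOX2, which shortens the side chain, was at 37.8 ± 0.985 CPM in formononetin and 24.3 ± 2.51 CPM in control libraries (0.64 ± 0.09), HSD3B7 at 25.2 ± 1.72 and 16.5 ± 2.96 CPM (0.61 ± 0.13) and SCP2 at 46.1 ± 3.15 and 30.3 ± 2.29 CPM (0.61 ± 0.08). The call of HSD3B7 was lost without formononetin replicate 1 or control replicate 2 or 3 (adjusted p up to 0.0564). The lowered gene was CYP7A1, the rate-limiting enzyme, at 0.783 ± 0.152 CPM in formononetin and 1.81 ± 0.291 CPM in control libraries. CYP8B1, which makes the precursor of cholic acid, had the largest change of the list, at 5.17 ± 0.68 CPM in formononetin and 1.93 ± 0.296 CPM in control libraries (1.42 ± 0.17, edgeR adjusted p = 0.00163, raised). Both are low in abundance and were picked out once their values were known. The list for steroid hormone metabolism holds reductases, dehydrogenases and a sulfatase. Of its 13 tested genes 5, the sulfatase among them, were raised and none lowered (median 0.43, against 12% raised over all tested genes). HSD17B4, also among the raised bile acid genes, changed by 0.57 ± 0.04 on the log2 scale. HSD17B2 changed by 0.55 ± 0.07 and SRD5A3 by 0.53 ± 0.13. Raised steroid genes numbered 2 or 3 without formononetin replicate 2 or 3 or any 1 of the control replicates, and 2 under upper quartile scaling. The call of SRD5A3 was lost in the same settings (adjusted p up to 0.0977). Of 5 polyol and fructose pathway genes beside AKR1B1, 2 were raised and none lowered (median 0.22, against 12% raised over all tested genes): TKFC (1.07 ± 0.10) and the fructose kinase gene KHK (0.63 ± 0.06).

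Among other members of the superfamily 1 of 5 tested, AKR1B15 described above, was raised and none lowered (median 0.12, against 12% raised over all tested genes); AKR7L and the potassium channel subunits KCNAB1, KCNAB2 and KCNAB3 were not called. Of 8 genes that encode or control NRF2, 2 were raised and none lowered (median 0.06), a share near the 21.6% raised among genes averaging at least 3 in log2 CPM. SQSTM1, which binds the NRF2 inhibitor KEAP1, was at 902 ± 19.3 CPM in formononetin and 419 ± 8.99 CPM in control libraries (1.11 ± 0.04), and BACH1, which represses NRF2 targets, changed by 0.26 ± 0.05. NFE2L2, the NRF2 gene itself, was at 221 ± 20 CPM in formononetin and 155 ± 83.1 CPM in control libraries and was not called (adjusted p = 0.428). Of 15 hepatocyte transcription factor genes 3 were raised and 6 lowered (median -0.26), against 12% and 8.71% of all tested genes. The share raised was near the 21.6% of genes averaging at least 3 in log2 CPM. For lowered genes the share at that abundance was not computed, and 5 to 8 of the list were lowered under the alternatives run. ONECUT1 (-0.82 ± 0.06), the bile acid receptor gene NR1H4 (-0.74 ± 0.06) and FOXA2 (-0.50 ± 0.06) had the largest falls among the lowered genes, and NR1I2, the xenobiotic receptor PXR, rose (0.88 ± 0.15). NR1I3, the gene of the receptor CAR, had a lower log2 fold change (-1.02 ± 0.31) at 1.01 ± 0.4 CPM in formononetin and 2.04 ± 0.476 CPM in control libraries, and was not called (edgeR adjusted p = 0.0562). The 7 lowered hepatocyte markers included FGB (-0.81 ± 0.05), TF (-0.64 ± 0.03) and SERPINA1 (-0.57 ± 0.06), so the rise of the reductases went with lower levels of these markers, whose part was not tested.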

How the data were processed

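The authors deposited 1 table of whole-number counts per gene for 3 formononetin and 3 control HepG2 libraries, made with a stranded mRNA kit, per the labels' protocols. GRCh38, STAR 2.5.3a and StringTie 1.3.1c are named in the submitters' processing notes without a role; the sources used here do not name the counter, its strand setting or its annotation. Of 62729 rows, 2165 without a gene identifier (3.82 to 5.62% of counts) were left out. Symbols matched 60295 of 60564 identifiers.

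Libraries were scaled with TMM after filterByExpr and compared with edgeR 4.0.16 in R 4.3.3 (quasi-likelihood F test, 3 against 3, group as the only term, two-sided, Benjamini-Hochberg over 22230 genes, threshold 0.05). Standard errors were obtained by dividing the log2 fold change by the square root of F, and 95% intervals use the test's degrees of freedom. The procedure was tested on simulated data, the results of which are not given here. CPM use TMM-scaled library sizes. Intervals and floors cover counting error only where they come from counts.

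Chi-square tests of replicate pairs gave 15.2 to 39.2 per degree of freedom, so no libraries were merged. Exon and coding lengths came from GENCODE 29, and coding sequences were aligned with Biopython 1.88. Shares and ratios were compared by exact permutation over libraries. The alternatives were DESeq2 1.42.0, limma 3.58.1 voom, other scalings and filters, a replicate block, leaving out each library, summed copies and other lengths; the coding length and the sums of AKR1C1 with AKR1C2 and of AKR1B10 with AKR1B15 and AKR1B10P1 were chosen after seeing the data. The genes and lists were chosen with earlier results of these data known. List genes are named where called at a mean log2 CPM of 3 or more, up to 3 in the list's main direction and 1 in the other; NFE2L2, CYP7A1, CYP8B1, NR1I3, the channel subunits, PDGFRB, CD68 and markers at 0 were named after their values were seen. Figures were drawn with matplotlib 3.10.9.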

Additional observations from a re-analysis of the deposited data

How the results depend on the processing

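AKR1B10, AKR1C1, AKR1C2, AKR1C3 and AKR7A2 kept their direction and their call in every alternative run in which they were single genes, with log2 fold changes of 2.12 to 2.25, 1.02 to 1.15, 1.14 to 1.27, 0.62 to 0.76 and 0.63 to 0.77. AKR1D1 and AKR7A3 were called in none. Over all genes, leaving out 1 library gave 1703 to 2189 raised and 1272 to 1478 lowered genes, against 2659 and 1937; the lowest values were without formononetin replicate 3 and control replicate 3. Upper quartile scaling gave 1813 raised and 2737 lowered. The family count was 5 to 7 raised and 0 lowered throughout.

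With a replicate block 1921 genes were raised and 1362 lowered, and AKR1A1 (0.21, adjusted p = 0.0664) and AKR1B1 (0.67, adjusted p = 0.0555) were not called; PGLS (adjusted p = 0.0518) and SRD5A3 (adjusted p = 0.0745) also lost their calls. Same-numbered libraries did not deviate together (correlations of -0.0381, -0.0524 and -0.0529 for replicates 1, 2 and 3), and no library correlated best with its own number.

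The share of AKR1B10 was 15.8 percentage points higher in formononetin libraries per kb of exons, 6.49 per kb of coding length and 5.87 by CPM. That of AKR1C1 changed by -4.63, -2.18 and -1.90 points, and that of AKR1C2 by -1.03, 1.03 and 1.15 points, in the same order, since AKR1C1 and AKR1C2 have long annotated exons beside AKR1B10. For AKR1C4 the share difference of -0.00597 points ran from -0.0167 to 0.00825 when a library was left out, and the log2 change of its ratio to AKR1C3 from -0.448 to 1.68, since its counts are few. Without the filter AKR1C4 changed by 0.74 (adjusted p = 0.682).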
